A study of Mus musculus with 6 samples.

Results

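The interferon response genes described here were 42 genes chosen by symbol for their role in the response: the chains of the interferon receptors, the transcription factors downstream, sensors of foreign nucleic acid, and the effectors that interferon switches on. Of these, 41 had a row in the tables of 24214 RefSeq genes, and 38 of the 41 had enough reads to be tested. They were measured by RNA sequencing in an epithelial murine lung adenocarcinoma (LUAD) cell line labelled C57BL/6 and KP, transfected with a ZEB1 expression vector (393P_ZEB1 cells, 3 samples) or with the empty vector (393P_vector cells, 3 samples). ZEB1 is a transcription factor that drives the epithelial-to-mesenchymal transition, so the comparison asks what ectopic ZEB1 does to the interferon genes of an epithelial cancer cell. The labels name no interferon or other treatment for either group, and both grew in the same medium with serum. The labels do not say whether the 3 samples of a group were separate cultures or clones, so the p-values measure only the spread between these samples.

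Type I interferons bind the receptor chains IFNAR1 and IFNAR2, and interferon gamma binds IFNGR1 and IFNGR2. Janus kinases on the receptors then phosphorylate STAT proteins, which join IRF9 on interferon-stimulated response elements or bind gamma-activated sites in pairs. The genes switched on code for proteins that detect viral RNA, block its translation or disturb the entry, budding and growth of microbes, and many cells keep a low level of them without added interferon.

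Because many members share these DNA elements, their RefSeq promoters were searched for the core of the interferon-stimulated response element, GAAANNGAA, on both strands, from 250 bases before to 50 bases after each start (build GRCm38.p6). Promoters were found for 33 members, and 20 of them (60.6%) held at least 1 match, against 9.76% of 27025 genes with a promoter in the table. The gamma-activated site TTCNNNGAA was found for 11 of the 33 (33.3%, against 9.55% of all genes), and the E-box that ZEB1 can bind, CAGGTG or CAGGTA, for 10 (30.3%, against 32.5%). The 160 bases before the start are shown for 8 members that recur in the results, 5 of which had more RNA in 393P_ZEB1 cells (Ifit1, Ifit2, Oas3, Rsad2 and Gbp2), with Ifit3 and Isg15, which did not pass the test, and Bst2, which had less. Capitals mark the matches to the response element on either strand, 5′ to 3′ along the gene.
Ifit1: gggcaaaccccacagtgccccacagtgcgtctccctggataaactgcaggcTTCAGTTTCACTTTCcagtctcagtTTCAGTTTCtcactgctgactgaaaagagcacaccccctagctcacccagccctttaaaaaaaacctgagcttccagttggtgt
Ifit3: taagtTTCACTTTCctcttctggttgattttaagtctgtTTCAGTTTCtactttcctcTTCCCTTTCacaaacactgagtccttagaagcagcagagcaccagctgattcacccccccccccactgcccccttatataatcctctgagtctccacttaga
Ifit2: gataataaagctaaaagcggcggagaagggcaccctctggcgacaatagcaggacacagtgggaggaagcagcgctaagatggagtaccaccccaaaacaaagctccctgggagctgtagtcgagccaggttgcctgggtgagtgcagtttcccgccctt
Oas3: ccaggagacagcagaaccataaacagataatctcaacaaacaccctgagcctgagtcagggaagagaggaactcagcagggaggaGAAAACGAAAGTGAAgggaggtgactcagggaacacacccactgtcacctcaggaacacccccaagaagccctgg
Rsad2: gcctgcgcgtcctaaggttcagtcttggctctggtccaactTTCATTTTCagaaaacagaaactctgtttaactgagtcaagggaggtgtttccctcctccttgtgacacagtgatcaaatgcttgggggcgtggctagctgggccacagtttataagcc
Gbp2: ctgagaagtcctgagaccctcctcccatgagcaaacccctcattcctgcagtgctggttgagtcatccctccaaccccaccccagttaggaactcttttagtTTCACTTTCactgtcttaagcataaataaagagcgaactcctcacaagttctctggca
Isg15: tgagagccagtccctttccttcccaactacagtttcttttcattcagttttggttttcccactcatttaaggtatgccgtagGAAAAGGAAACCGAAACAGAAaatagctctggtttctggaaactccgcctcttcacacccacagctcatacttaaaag
Bst2: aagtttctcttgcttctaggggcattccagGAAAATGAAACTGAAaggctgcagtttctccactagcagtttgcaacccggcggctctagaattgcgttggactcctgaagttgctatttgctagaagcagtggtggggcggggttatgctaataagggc
The stretches lie at chr19:34640729-34640888 (plus strand), chr19:34583369-34583528 (plus), chr19:34550534-34550693 (plus), chr5:120777660-120777819 (minus), chr12:26456453-26456612 (minus), chr3:142620503-142620662 (plus), chr4:156200819-156200978 (minus) and chr8:71537473-71537632 (minus). In Ifit1 the capitals span 109 to 76 bases before the start, and in Isg15 they span 78 to 58 bases. Ifit2 had no capitals in its stretch, which lies before the first of its RefSeq starts. Sequence outside the windows around RefSeq starts was not searched for any member. Matches are letters in a sequence, and no binding was measured.

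Depth ranged from 54442450 to 79158012 total counts per sample, at which 3 counts correspond to 0.0361 to 0.0561 CPM. CPM is the count scaled to the depth of its library, here the library size after edgeR's TMM normalization. Zeb1 itself measured 21.2, 22.0 and 21.4 CPM in 393P_vector replicates 1 to 3 and 54.9, 48.9 and 51.3 CPM in 393P_ZEB1 replicates 1 to 3, which include any reads from the vector's insert. Of 5 epithelial markers, 4 were lower in 393P_ZEB1 cells, and the epithelial keratins remained abundant. The 5 markers, mostly keratins by CPM, summed to between 4370 and 4997 CPM in vector samples and between 2745 and 3041 CPM in ZEB1 samples. Epcam and Cdh1, which are not keratins, fell much further. Epcam averaged 122 CPM in vector samples and 1.31 CPM in ZEB1 samples, and Cdh1 averaged 162 and 9.51 CPM. The 5 leukocyte markers with a row (Ptprc, Cd3e, Itgam and Csf1r among them) summed to at most 2.08 CPM in any sample, and the 3 endothelial markers to at most 2.37 CPM. Both of these sums were lower in every ZEB1 sample than in every vector sample. None of these markers was at 0 in all samples, and Cd3e stayed at or below 9 counts per sample.

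A pair of vector samples stood apart and touch many of the values that follow. Vector replicate 2 was more than 1.5 times above both other vector samples for 10 of the 38 tested members (26.3%), against 1.26% of all 13892 tested genes: Dhx58, Gbp3, Ifi44, Ifit1, Ifit3, Irf7, Oas3, Oasl2, Rsad2 and Usp18. Usp18, whose product removes ISG15 from proteins and restrains the type I receptor, had 41, 177 and 40 counts in vector replicates 1 to 3, and 45, 40 and 24 counts in ZEB1 replicates 1 to 3. Ifnb1, the gene of interferon beta, had 1, 9 and 2 counts in the vector samples and 0, 3 and 2 in the ZEB1 samples, too few for a test. Vector replicate 3 was more than 1.5 times above both others for 11.2% of all genes and for 4 members (Ifitm2, Ifitm3, Ifnar2 and Ifngr1), and a fit with sample weights gave it the lowest weight, 0.111, with the other samples between 0.726 and 3.02. The cause of either departure was not tested.

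**Figure D1:**
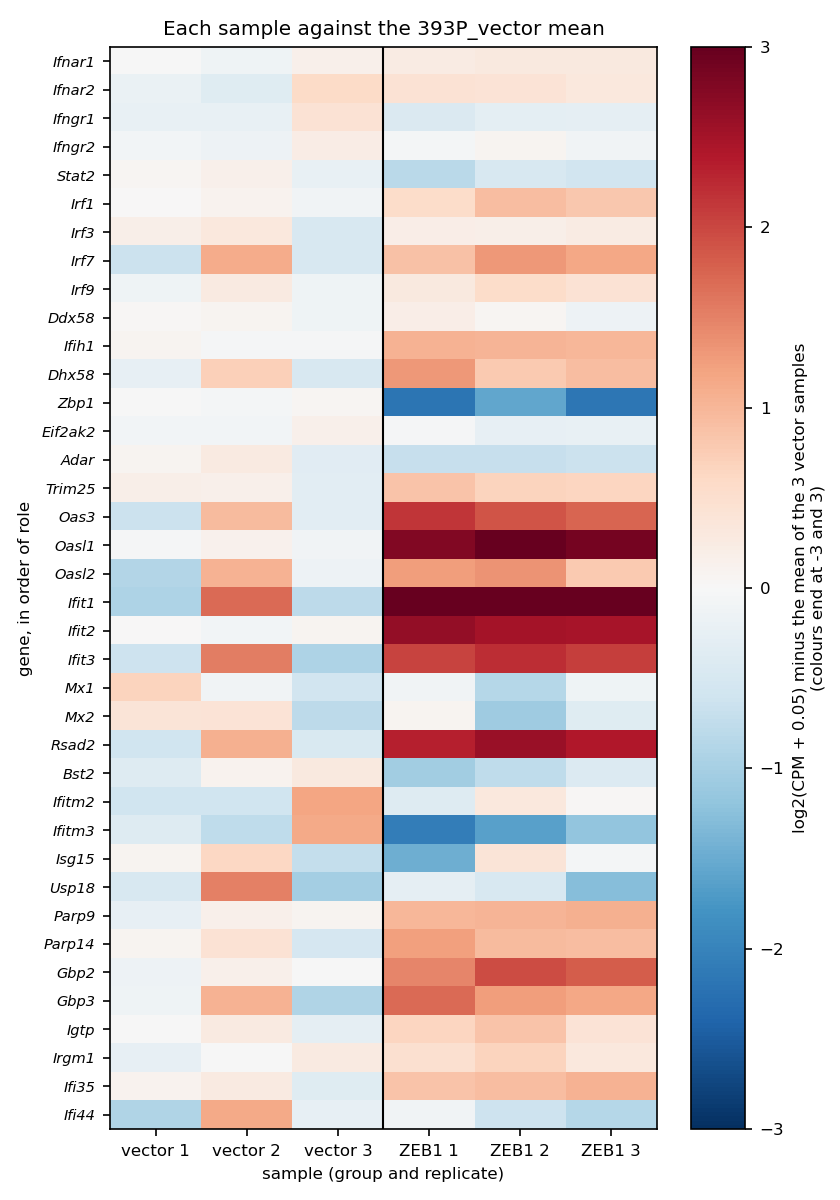
Colour map of log2(CPM + 0.05) for the 38 tested members in each of the 6 samples, as the difference from the mean of the 3 vector samples, with the genes ordered by role and the colours ending at -3 and 3. Vector replicate 2 is redder than vector replicates 1 and 3 for genes such as Ifit1, Ifit3, Irf7 and Usp18, while Oasl1 and Ifit2 are alike in the 3 vector samples and red in all 3 ZEB1 samples.

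**Figure D2:**
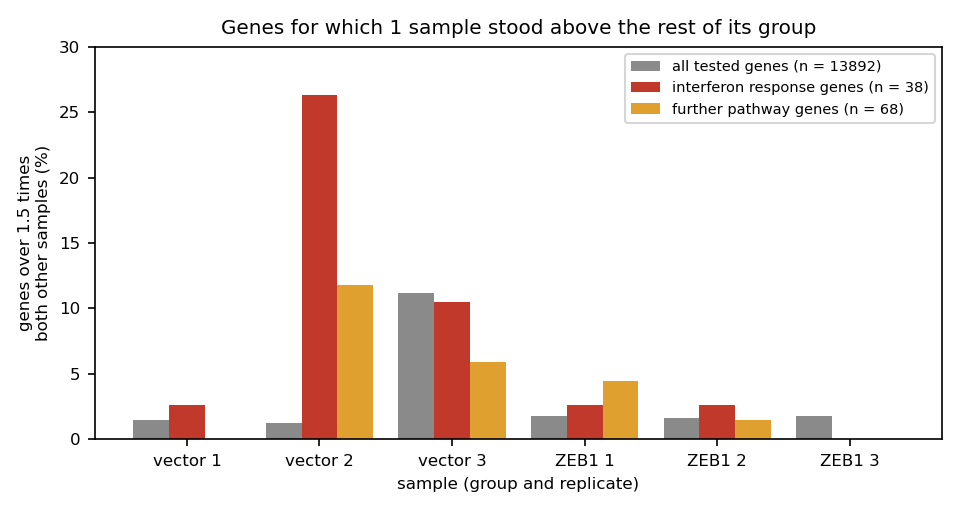
Bars give, for each sample, the percentage of genes more than 1.5 times above both other samples of its group, for all 13892 tested genes, the 38 members and 68 further genes of the pathway. Vector replicate 2 reaches 26.3% of members beside 1.26% of all genes, and vector replicate 3 reaches 11.2% of all genes.

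Among the interferon response genes, more were higher than lower in 393P_ZEB1 cells. In edgeR's quasi-likelihood test, adjusted by the Benjamini-Hochberg method over all 13892 genes with a threshold of 0.05, 13 of the 38 tested members were higher in 393P_ZEB1 cells and 5 were lower. Among all genes, 18.3% were higher and 19.3% lower. The members thus exceeded the share of all genes on the higher side only. The median log2 fold change, 393P_ZEB1 over 393P_vector, was 0.45 over the 38 members and -0.02 over all genes. In 19 members every ZEB1 sample lay above every vector sample, against 26.3% of all genes, and in 6 every ZEB1 sample lay below, against 26.5%. The higher genes were Irf1, Ifih1, Trim25, Oas3, Oasl1, Ifit1, Ifit2, Rsad2, Parp9, Parp14, Gbp2, Igtp and Ifi35, and the lower genes were Stat2, Zbp1, Adar, Bst2 and Ifitm3. In bulk samples such as these, fewer cells that hold an RNA and less of it per cell cannot be told apart.

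These counts depended on the vector samples described above. Without vector replicate 2, 19 members were higher and 3 lower, beside 15.8% and 16.7% of all genes. Without vector replicate 3, the counts were 18 and 5, beside 26.2% and 26.8%. Leaving out ZEB1 replicate 1 instead gave 10 and 2, beside 13.2% and 13%. The filter on low counts also bears on them: 30 of the 38 tested members reached it in every sample of both groups, but Ifit1, Ifit3 and Rsad2 reached it in all samples of 393P_ZEB1 cells only, and Ifitm3 and Isg15 in all samples of 393P_vector cells only. Leaving out a vector sample that is high for a gene raises its fold change. A pass without the vector sample highest for a gene is therefore no support for an increase of that gene. This holds for the 10 members that were high in vector replicate 2, and for members highest in vector replicate 3. Those of the 10 not called in the main fit were called in few alternative settings: Irf7 and Oasl2 in 2 of 12, Dhx58 and Gbp3 in 3 of 12 and Ifit3 in 5 of 11. Ifi44 and Usp18 were called in none.

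**Figure D3:**
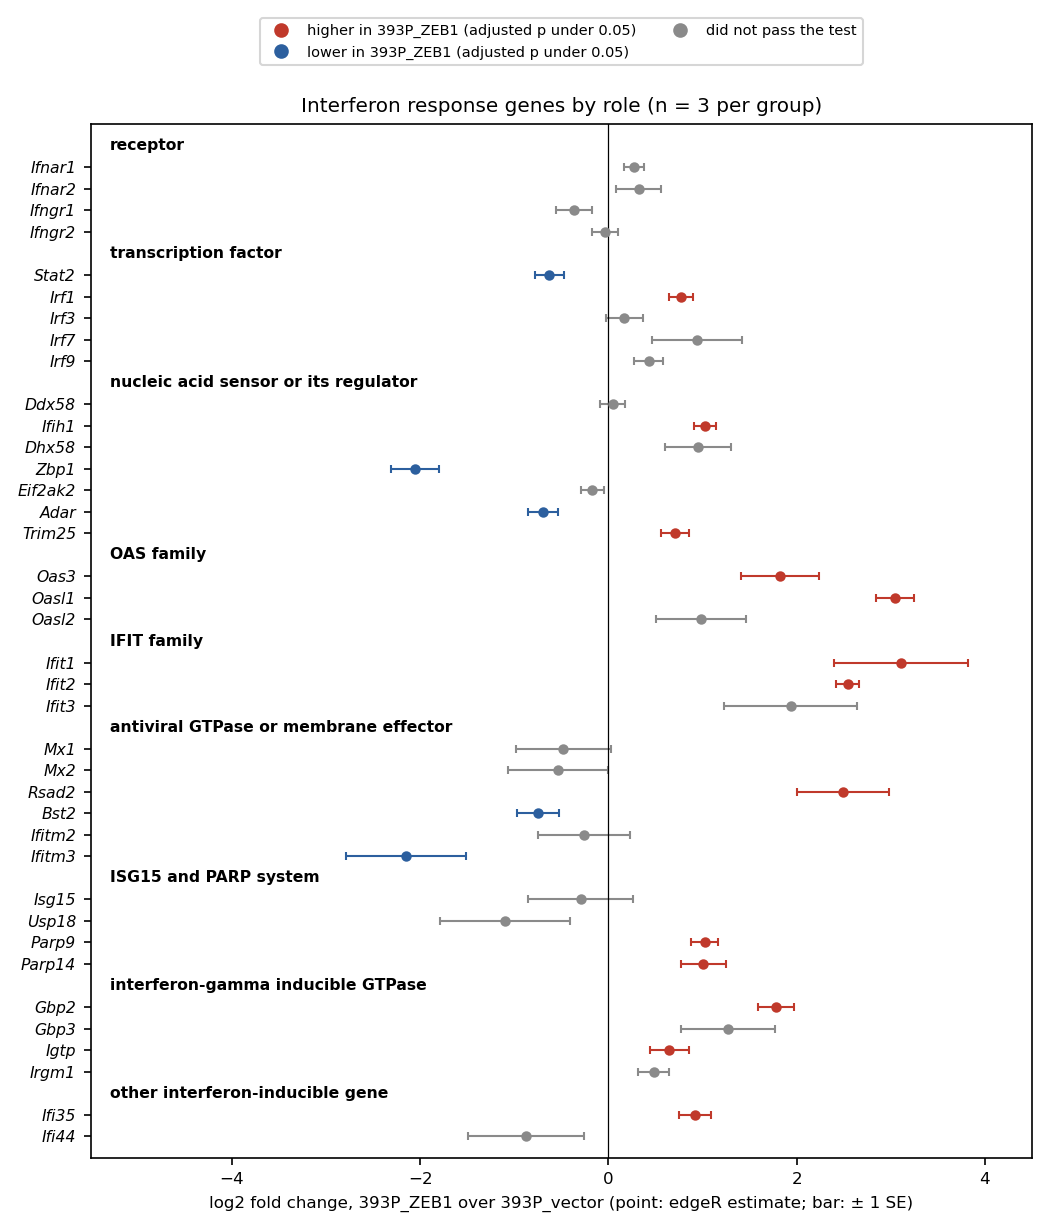
Points give edgeR's log2 fold change of the 38 tested members, 393P_ZEB1 over 393P_vector, with bars of 1 SE (n = 3 per group), grouped by role and coloured by the test. The receptors lie near 0, Oasl1, Ifit1 and Ifit2 lie at 2.54 or above, and Zbp1 and Ifitm3 lie below -2.

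None of the 4 receptor genes passed the test. Ifnar1 measured 74.2, 67.4 and 82.1 CPM in the vector samples and 87.8, 91.3 and 90.9 CPM in the ZEB1 samples, a log2 fold change of 0.27 ± 0.11 (SE, adjusted p = 0.0834). Its groups did not overlap, and vector replicate 3 was the vector sample nearest to the ZEB1 samples. Ifnar2 measured 17.5, 15.8 and 30.1 CPM against 27.2, 27.1 and 25.1 CPM (0.32 ± 0.24, adjusted p = 0.321), and here vector replicate 3 lay above all ZEB1 samples. Without vector replicate 3 both type I receptor chains passed: Ifnar1 had a log2 fold change of 0.35 (adjusted p = 0.00419) and Ifnar2 of 0.67 (adjusted p = 0.000317). That replicate was the highest vector sample for both genes, so its absence raises their fold changes, and these passes are no support for an increase.

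The interferon gamma receptor gave no call under that setting either. Ifngr1, the ligand-binding chain, measured 59.4, 59.3 and 92.7 CPM against 50.8, 56.6 and 56.8 CPM (-0.36 ± 0.19, adjusted p = 0.165). All ZEB1 samples lay below the vector samples, though close to vector replicates 1 and 2. Ifngr2, the second chain, measured 32.5, 31.0 and 40.2 CPM against 32.9, 36.2 and 32.1 CPM (-0.04 ± 0.13, adjusted p = 0.858), with groups that overlapped.

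Of the 5 transcription factors, Irf1 was higher and Stat2 lower in 393P_ZEB1 cells. Irf1, itself induced by interferon gamma and an activator of many interferon genes, measured 30.3, 32.2 and 28.0 CPM in the vector samples and 44.5, 57.3 and 52.4 CPM in the ZEB1 samples. All ZEB1 samples lay above the vector samples, with a log2 fold change of 0.77 ± 0.13 (SE, adjusted p = 0.00273), and it was called under each of the 12 alternative settings. Stat2, the STAT particular to type I and type III interferon signalling, measured 19.7, 21.0 and 15.9 CPM against 10.6, 13.4 and 12.6 CPM. Its ZEB1 samples all lay below its vector samples (-0.63 ± 0.16, adjusted p = 0.0166). The call on Stat2 was lost without vector replicate 1 (adjusted p = 0.0565), vector replicate 2 (0.0548), ZEB1 replicate 1 (0.0666) or ZEB1 replicate 3 (0.0586), with log2 fold changes between -0.64 and -0.53.

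The other 3 factors did not pass. Irf9, the DNA-binding partner of STAT proteins, measured 8.90, 11.6 and 8.82 CPM against 11.9, 14.3 and 13.2 CPM (0.43 ± 0.16, adjusted p = 0.0704), with groups that did not overlap. Irf3, present before infection and activated by sensors of viral RNA, measured 36.2, 40.3 and 23.1 CPM against 37.2, 36.7 and 38.05 CPM (0.17 ± 0.20, adjusted p = 0.538), with vector replicate 3 the lowest of all. Irf7, which amplifies type I interferon and is itself induced by it, measured 0.424, 1.55 and 0.481 CPM against 1.31, 1.76 and 1.61 CPM (0.94 ± 0.48, adjusted p = 0.162), with vector replicate 2 inside the range of the ZEB1 samples. Without that replicate Irf7 passed with a log2 fold change of 1.78 (adjusted p = 0.00285), and so did Irf9 with 0.57 (adjusted p = 0.0344). Since vector replicate 2 was the highest vector sample for both genes, neither pass is support. Of the 12 alternative settings, Irf7 was called in 2 and Irf9 in 3. In the others the adjusted p reached 0.327 for Irf7 and 0.206 for Irf9.

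The 7 sensors of nucleic acid and their regulators split evenly, with 2 higher, 2 lower and 3 not called, beside 18.3% higher and 19.3% lower of all genes. Ifih1, which codes for the cytosolic sensor of long double-stranded RNA MDA5, measured 10.1, 9.42 and 9.34 CPM in the vector samples and 19.96, 19.4 and 19.3 CPM in the ZEB1 samples. The spread within each group was small beside the gap between them, and the log2 fold change was 1.02 ± 0.12 (SE, adjusted p = 0.000333). Trim25, a ubiquitin ligase that activates the sensor RIG-I, measured 144, 143 and 104 CPM against 233, 205 and 201 CPM (0.71 ± 0.15, adjusted p = 0.00805). Every ZEB1 sample exceeded every vector sample. Ddx58, the gene of RIG-I itself, overlapped between groups (0.05 ± 0.13, adjusted p = 0.809).

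Zbp1 and Adar, which code for proteins that bind nucleic acid in the Z form, were both lower. Zbp1, which can start necroptosis, measured 1.78, 1.72 and 1.88 CPM in the vector samples and 0.355, 0.576 and 0.360 CPM in the ZEB1 samples. No ZEB1 sample came near the vector range, and the log2 fold change was -2.06 ± 0.25 (SE, adjusted p = 0.000531). Adar, which edits adenosine to inosine in double-stranded RNA and so keeps it from the sensors, measured 115, 130 and 85.3 CPM against 67.4, 67.2 and 68.9 CPM (-0.70 ± 0.16, adjusted p = 0.0104). The vector samples of Adar spread widely but lay above all ZEB1 samples. Both calls were made under each of the 12 alternatives.

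Dhx58, which codes for the RIG-I relative LGP2, measured 1.11, 2.23 and 0.939 CPM against 3.36, 2.32 and 2.56 CPM and did not pass (0.95 ± 0.35, adjusted p = 0.0647). Vector replicate 2 stood just below the lowest ZEB1 sample, and without it Dhx58 passed with 1.43 (adjusted p = 0.00603). Eif2ak2, the gene of the double-stranded RNA-activated kinase PKR, overlapped between groups (-0.17 ± 0.12, adjusted p = 0.307).

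Effectors of the OAS and IFIT families held the largest increases among the members. In 393P_ZEB1 cells, 2 of the 3 tested OAS family genes and 2 of the 3 IFIT genes were higher, and none was lower. Among all genes, 18.3% were higher and 19.3% lower. Of the called genes, Ifit1 reached the count filter in all samples of 393P_ZEB1 cells only. Oasl1, coding for an oligoadenylate synthetase-like protein without the synthetase activity that represses Irf7 translation in the mouse, measured 0.512, 0.578 and 0.481 CPM in the vector samples and 3.89, 4.93 and 4.13 CPM in the ZEB1 samples. The vector samples were close together, vector replicate 2 included, and the fitted fold was 8.23 (log2 3.04 ± 0.20, adjusted p = 1.8e-05). Oas3, which makes the oligoadenylates that activate RNase L, measured 0.601, 1.90 and 0.770 CPM against 4.47, 3.71 and 3.36 CPM (1.82 ± 0.41, adjusted p = 0.0108). All ZEB1 samples lay above vector replicate 2, the highest vector sample, and leaving that one out raised the log2 fold change to 2.48 (adjusted p = 0.000402).

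Oasl2 measured 0.265, 1.14 and 0.469 CPM against 1.33, 1.42 and 0.950 CPM and did not pass (0.99 ± 0.48, adjusted p = 0.147). Vector replicate 2 lay above the lowest ZEB1 sample, and without it Oasl2 passed with 1.71 (adjusted p = 0.0105). Oas1a and Oas2 were not tested, since neither had more than 7 counts in any sample. Reads of the OAS, IFIT, IFITM and GBP families can be shared between near-identical members, and how the counting treated them was not given in the sources used here.

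The 3 IFIT genes lie close together on chromosome 19, Ifit2 at chr19:34550694-34576534, Ifit3 at chr19:34583529-34588982 and Ifit1 at chr19:34640889-34650009, in the coordinates of the tables. IFIT proteins bind viral RNA and hold back its translation. Ifit2 measured 7.74, 7.19 and 8.11 CPM in the vector samples and 48.3, 43.7 and 42.5 CPM in the ZEB1 samples. Replicates of each group were close, and the fitted fold was 5.83 (log2 2.54 ± 0.12, adjusted p = 3.94e-06), the smallest adjusted p among the members. Ifit2 had the smallest SE of the family.

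Ifit1 measured 0.0707, 0.697 and 0.0843 CPM (4, 41 and 7 counts) in the vector samples and 2.78, 2.05 and 2.31 CPM (149, 114 and 141 counts) in the ZEB1 samples. The vector samples spread widely around their mean (0.284 ± 0.358 CPM, SD, n = 3), but all lay below the ZEB1 samples, and the log2 fold change was 3.11 ± 0.71 (SE, adjusted p = 0.0115). It ran from 2.61 without vector replicate 3 to 4.89 without vector replicate 2, and the call was lost without ZEB1 replicate 1 (2.98, adjusted p = 0.0505). Ifit3 measured 0.0707, 0.493 and 0.0481 CPM against 0.710, 0.810 and 0.737 CPM. Its groups did not overlap, but it did not pass (1.93 ± 0.70, adjusted p = 0.0646). It passed without vector replicate 2 (3.66, adjusted p = 0.000463) and without vector replicate 3 (1.40, adjusted p = 0.04999).

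Among the 7 antiviral GTPases and membrane effectors, 1 was higher, 2 were lower, 3 did not pass and 1 was not tested. The shares over all genes were 18.3% higher and 19.3% lower. Rsad2, coding for viperin, an enzyme that makes a chain-terminating nucleotide, measured 0.106, 0.442 and 0.1204 CPM in the vector samples and 1.14, 1.37 and 1.20 CPM in the ZEB1 samples. Every ZEB1 sample lay well above vector replicate 2, the highest of its group (log2 fold change 2.49 ± 0.49, SE, adjusted p = 0.0057), and without that replicate the value was 3.42 (adjusted p = 0.00026).

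Bst2 and Ifitm3 changed the other way. Bst2, which codes for tetherin, a protein that holds budding virions at the cell surface, measured 15.1, 21.2 and 24.5 CPM against 9.68, 11.7 and 14.8 CPM. The highest ZEB1 sample lay just below the lowest vector sample (-0.75 ± 0.23, adjusted p = 0.0336), and the call was lost without vector replicate 2 (-0.71, adjusted p = 0.0747), ZEB1 replicate 1 (-0.61, adjusted p = 0.124) or ZEB1 replicate 2 (-0.72, adjusted p = 0.111). Ifitm3, which blocks the fusion of viruses in endosomes, measured 0.406, 0.306 and 1.28 CPM against 0.0935, 0.144 and 0.213 CPM (-2.15 ± 0.64, adjusted p = 0.0321). Vector replicate 3 had 106 counts beside 23 and 18 in the other vector samples, and without it the log2 fold change was -1.21 (adjusted p = 0.0395). Leaving out any 1 of the ZEB1 samples raised the adjusted p to between 0.0654 and 0.122.

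Ifitm2, a close relative of Ifitm3, measured 5.23, 5.24 and 18.2 CPM against 6.02, 9.83 and 8.11 CPM. It did not pass (-0.26 ± 0.49, adjusted p = 0.708), and its direction turned without vector replicate 3, to 0.61 (adjusted p = 0.022). Mx1 and Mx2, named for dynamin-like antiviral GTPases but annotated by RefSeq as transcribed pseudogenes in the reference mouse genome, the only members with a row that are not given as protein-coding, had between 5 and 20 counts in each sample and groups that overlapped. Ifitm1 had at most 6 counts and was not tested.

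Parp9 and Parp14, ADP-ribosylating enzymes, were higher, while Isg15 and Usp18 did not pass. The neighbours lie at chr16:35938470-35972621 and chr16:35832878-35871382. Parp9 measured 9.12, 12.1 and 11.4 CPM in the vector samples and 21.6, 22.1 and 22.6 CPM in the ZEB1 samples (log2 fold change 1.02 ± 0.14, SE, adjusted p = 0.000969). Parp14 measured 5.94, 7.56 and 3.96 CPM against 13.3, 10.98 and 10.8 CPM (1.01 ± 0.24, adjusted p = 0.0136). In neither gene did the groups overlap, although the call on Parp14 was lost without ZEB1 replicate 1 (0.91, adjusted p = 0.061). Parp9 shares 558 bases with Dtx3l on the opposite strand, and reads there cannot be told apart unless strand was used in counting.

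Isg15, the ubiquitin-like modifier that is among the most inducible interferon genes, had 27, 42 and 21 counts in the vector samples and 7, 33 and 26 in the ZEB1 samples. Its groups overlapped (-0.29 ± 0.56, adjusted p = 0.712). For Usp18 the log2 fold change was -1.10 ± 0.69 (adjusted p = 0.247), and without vector replicate 2, which held 177 of its counts, it was 0.12 (adjusted p = 0.833).

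In all 4 member GTPases induced by interferon gamma, every ZEB1 sample lay above every vector sample, as in 26.3% of all genes. Of these 4, 2 were called higher, beside 18.3% of all genes. The further pathway list held 6 such GTPases that could be tested, of which 4 were higher and 1 lower. In 4 of those 6 every ZEB1 sample lay above every vector sample, and in 2 every ZEB1 sample lay below. Gbp2, a guanylate-binding protein that attacks the vacuoles of intracellular microbes, measured 1.91, 2.38 and 2.13 CPM in the vector samples and 6.00, 8.39 and 7.63 CPM in the ZEB1 samples. That gap was several times the spread of either group, with a log2 fold change of 1.78 ± 0.19 (SE, adjusted p = 0.000249). Igtp, an immunity-related GTPase of the mouse, measured 2.97, 3.64 and 2.47 CPM against 4.71, 5.47 and 3.997 CPM (0.65 ± 0.21, adjusted p = 0.0422). Its lowest ZEB1 sample was close to vector replicate 2, and the call was lost without vector replicate 1 or any 1 of the ZEB1 samples (adjusted p between 0.0546 and 0.144). Gbp3 (1.27 ± 0.50, adjusted p = 0.0836) passed without vector replicate 2 (2.06, adjusted p = 0.00632), and Irgm1 (0.48 ± 0.17, adjusted p = 0.0546) passed without vector replicate 3 (0.63, adjusted p = 0.00177). For each gene the replicate left out was its highest vector sample, so neither pass is support.

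Of the last 3 members, Ifi35, whose product binds the regulator NMI, measured 19.7, 22.1 and 14.4 CPM in the vector samples and 33.3, 35.2 and 37.9 CPM in the ZEB1 samples. Its groups lay far apart (log2 fold change 0.92 ± 0.17, SE, adjusted p = 0.00439). Ifi44 overlapped between groups, with 43 counts in vector replicate 2 and between 8 and 21 in the other samples. Ifi27 had no row. RefSeq gives Ifi27l1 as an older symbol of that gene, and the row named Ifi27l1, kept out of the counts above, measured 6.70, 8.38 and 8.28 CPM against 15.2, 19.1 and 20.5 CPM. All its ZEB1 samples lay above the vector samples (1.23 ± 0.17, adjusted p = 0.000914).

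Levels can be compared between genes only per length, here as CPM per kb of exon. On that scale the members spanned a wide range in 393P_vector cells, from 33.7 for Ifngr1 to 0.0142 for Oas1a, and 20 of the 41 lay below 1. The median over all tested genes was 8.97 in 393P_vector cells and 8.79 in 393P_ZEB1 cells, and 11 and 12 members lay above it. After Ifngr1, the highest were Bst2, Trim25, Adar and Ifngr2. In 393P_ZEB1 cells Trim25 was first with 38.4, and Ifit2 moved from 1.95 to 11.4, that is from place 18 to place 11. Ifit1, Rsad2 and Oas3 remained below 1 in 393P_ZEB1 cells, at 0.904, 0.327 and 0.818, so their large folds were between low levels.

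**Figure D4:**
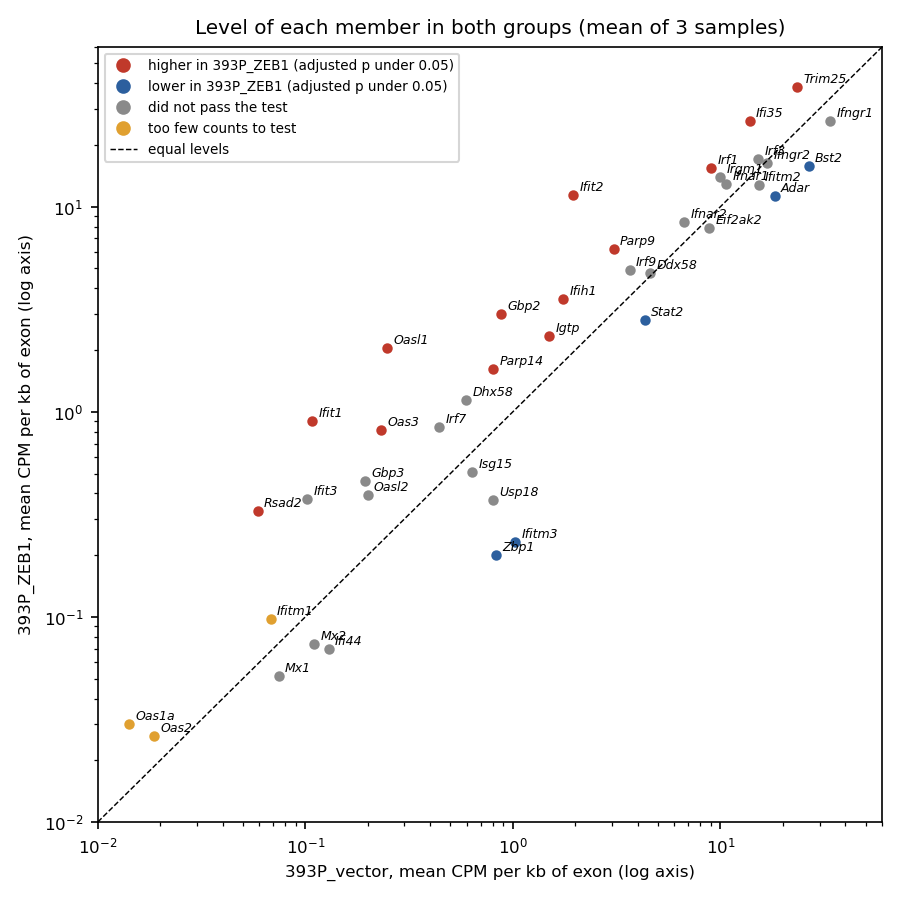
Each point is 1 of the 41 members with a row, with its mean CPM per kb of exon in the 3 vector samples on the horizontal and in the 3 ZEB1 samples on the vertical axis, both logarithmic, coloured by the test. Oasl1, Ifit1, Ifit2 and Rsad2 lie farthest above the dashed line of equal levels, and Zbp1 and Ifitm3 farthest below it.

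Whole chromosomes also differed between the groups, and the position of some members falls on them. The median log2 fold change of the tested genes other than members was 0.26 on chromosome 11 and 0.25 on chromosome 16, where elsewhere it was -0.05 and -0.03. Chromosome 11 carries 6 tested members (Irf1, Dhx58, Trim25, Igtp, Irgm1 and Ifi35), of which 4 were higher beside 29.1% of the other tested genes there, and chromosome 16 carries 7 (Ifnar1, Ifnar2, Ifngr2, Mx1, Mx2, Parp9 and Parp14), of which 2 were higher beside 29.6%. Stat2 and Ifngr1 lie on chromosome 10, whose median was -0.29, Irf9 on chromosome 14 (-0.26), Usp18 on chromosome 6 (-0.36) and Eif2ak2 on chromosome 17 (-0.43). Less the median of its chromosome, the log2 fold change was 0.03 for Ifnar1, 0.38 for Igtp, 0.45 for Trim25, 0.51 for Irf1, 0.78 for Parp9, 0.69 for Irf9 and -0.34 for Stat2, and it turned from -0.17 to 0.26 for Eif2ak2. The Ifit genes on chromosome 19 and the Oas genes on chromosome 5 lie where the medians were -0.03 and 0.07. The part of these shifts in the results was not tested.

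**Figure D5:**
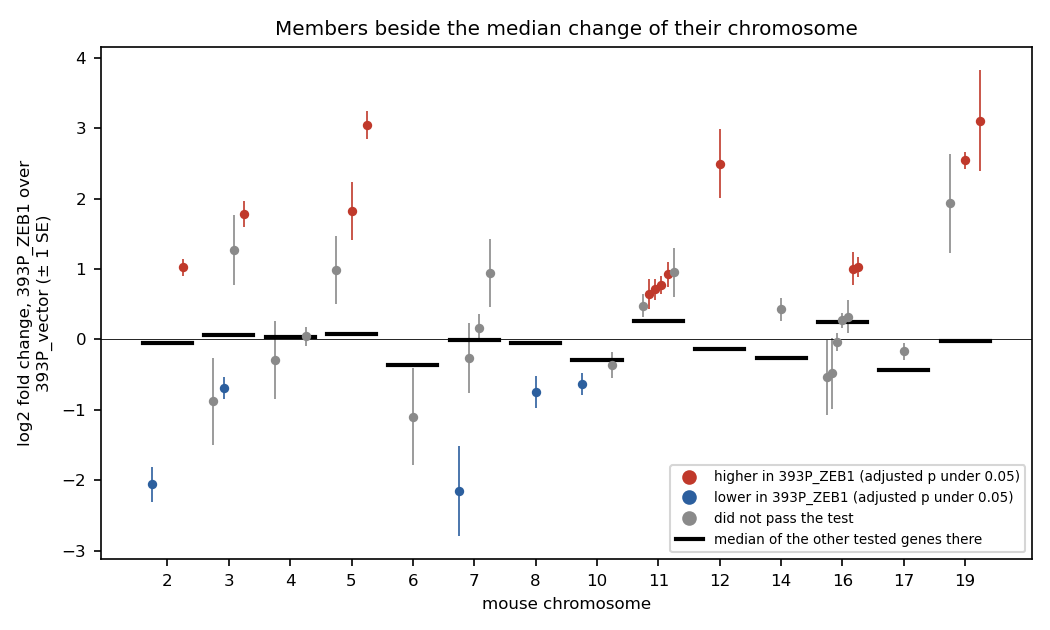
Points give the log2 fold change of each tested member, 393P_ZEB1 over 393P_vector, with bars of 1 SE, by mouse chromosome and coloured by the test; black lines mark the median of the other tested genes there. On chromosomes 6, 10, 14 and 17 the black line lies at -0.26 or below and on chromosomes 11 and 16 at 0.26 and 0.25. Every member on chromosomes 5, 11, 12, 14, 17 and 19 lies above the line, with 1 tested member each on 12, 14 and 17.

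Promoter matches were spread over the directions. The response element core was found for 7 of the 11 higher members with a promoter, for all 4 lower members with one (Stat2, Adar, Bst2 and Ifitm3), and for 8 of the 16 that did not pass. The E-box letters were found for 4 of the 11 higher, 1 of the 4 lower and 5 of the 16 others. The gamma-activated site was found for 4 of the 11 higher, 3 of the 4 lower and 3 of the 16 others. Irf1, Oasl1, Ifit2 and Ifi35, all higher, had no match to the response element core in these windows.

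A further list of 97 genes of the interferon pathway gave 68 that could be tested, of which 27 were higher in 393P_ZEB1 cells and 10 lower, beside the 18.3% and 19.3% of all genes given above. Their median log2 fold change was 0.31. How many of these 68 reached the count filter in all samples of a single group only was not counted. None of the 10 interferon genes on that list could be tested: 8 had a row, with at most 9 counts in any sample, and Ifna1 and Ifna5 had 0 counts in all 6, which allows up to 3 counts a sample. The Janus kinases Jak1 (-0.14 ± 0.29), Jak2 (0.11 ± 0.12) and Tyk2 (0.12 ± 0.16) did not pass. The groups overlapped for these 3 genes.

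The largest increases in the further list were those of Aim2, Lgals3bp, Gbp7 and Rtp4. Aim2, a sensor of cytosolic DNA that forms an inflammasome, measured 0.106, 0.034 and 0.1204 CPM in the vector samples and 1.83, 1.85 and 2.11 CPM in the ZEB1 samples (4.40 ± 0.36, adjusted p = 5.68e-05). With 6, 2 and 10 counts in the vector samples, Aim2 reached the count filter in all samples of 393P_ZEB1 cells only. Lgals3bp, a secreted glycoprotein that binds galectins, rose from 26.2 ± 3.25 to 206 ± 6.04 CPM (SD, n = 3, adjusted p = 2.2e-06 in edgeR). Gbp7, a guanylate-binding protein, rose by 2.71 ± 0.32 and Rtp4, a chaperone of receptors, by 2.57 ± 0.41 on the log2 scale (adjusted p = 0.000475 and 0.00215). Of 11 sensors and adaptors on the list, 3 were higher and 2 lower, beside 18.3% and 19.3% of all genes, with a median log2 fold change of -0.16. Beside Aim2 the higher ones, named after their values were seen, were Tmem173, the gene of STING (1.85 ± 0.12), and Mb21d1, the gene of the DNA sensor cGAS (1.04 ± 0.17). The lower ones, named likewise, were Traf3, an adaptor of the RNA sensors (-0.67 ± 0.11, adjusted p = 0.00207), and Ikbke, a kinase that activates IRF3 (-0.55 ± 0.17, adjusted p = 0.0373). Tmem173 lies on chromosome 18, as does Zeb1, where the median log2 fold change was 0.64.

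Among the largest decreases were those of Irf8, Ptpn6 and Ly6e. Irf8, best known as a factor of myeloid cells, measured 1.82, 2.46 and 2.00 CPM against 0.243, 0.126 and 0.115 CPM (-3.70 ± 0.32, adjusted p = 9.19e-05). With 13, 7 and 7 counts in the ZEB1 samples, Irf8 reached the count filter in all samples of 393P_vector cells only. Ptpn6, the phosphatase SHP-1 that dampens cytokine receptor signals, changed by -2.69 ± 0.16 and Ly6e, a surface protein induced by interferon, by -1.50 ± 0.16 on the log2 scale. In each of these 3 genes every ZEB1 sample lay below every vector sample.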

How the data were processed

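RNA of 393P_vector and 393P_ZEB1 cells (3 samples each) was prepared with a SOLiD total RNA kit, and the authors deposited, per sample, an unnormalized read count and an RPKM for each RefSeq gene. The RPKM, scaled by the authors to exon length and library, was not used. The aligner, the counting program and its use of strand were not given in the sources used here. The tables name no genome build, but the gene intervals overlapped those of RefSeq GRCm38.p6 for 99.4% of 20808 shared symbols. Samples were grouped by their labels.

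Counts were tested in R 4.3.3 with edgeR 4.0.16: filterByExpr with a minimum count of 10 (13892 genes kept), TMM, and a robust quasi-likelihood fit without covariates, with p-values adjusted by the Benjamini-Hochberg method at a threshold of 0.05. Between samples of a group the fit estimated a biological coefficient of variation of 0.184. An exact permutation test of 3 samples against 3 cannot go below 0.1 and was not used. The procedure was tested on simulated counts, with the same spread setting for every gene and changes only in genes with many counts. That simulation did not cover members with few counts or a sample that stands apart from its group. Alternatives were DESeq2 size factors, DESeq2 1.42.0, no filter, at least 10 counts in every sample, limma 3.58.1 (voom with sample weights), the replicate number as a block, and leaving out each sample. Promoter sequences were searched with Python 3.11.15.

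The members and the other lists were chosen with earlier results of these data known. Each member past the threshold, each receptor and each transcription factor is given by sample, with counts or ranges for most others, and from the further pathway list the 4 largest called changes in each direction and the kinases, except for some genes that are not reported here.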

Additional observations from a re-analysis of the deposited data

How the results depend on the processing

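With a weight for each sample, limma's voom fit called 3977 genes higher (28.6%) and 4094 lower (29.5%), and 23 members higher and 6 lower. It also turned the sign of Ifngr2 (0.0802), Ddx58 (-0.039) and Ifitm2 (0.63, past the threshold) on the log2 scale. Leaving out 1 sample at a time gave from 1861 to 3700 genes higher and from 1784 to 3776 lower, from 10 to 19 members higher and from 2 to 5 lower, and from 20 to 30 further pathway genes higher and from 6 to 13 lower. These fits hold 5 samples, and vector replicate 3 was the sample whose absence gave the most calls over all genes. The same fits moved the log2 fold change across 0 for Ifngr2 (-0.10 to 0.0872), Irf3 (-0.0369 to 0.33), Ddx58 (-0.0328 to 0.15), Mx1 (-0.81 to 0.0239), Ifitm2 (-0.55 to 0.61), Isg15 (-0.73 to 0.12) and Usp18 (-1.53 to 0.12). Of these, Ifitm2 without vector replicate 3 was the 1 that passed the threshold. The cause was not tested.

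With at least 10 counts in every sample, 30 members could be tested, and 11 were higher and 4 lower beside 17.5% and 17.6% of all genes, since Ifit1, Rsad2 and Ifitm3 left the test. DESeq2's test called 18 higher and 5 lower beside 20.3% and 21.3%. DESeq2's size factors in edgeR gave 13 and 5 beside 18.4% and 19.1%. Dropping the filter in edgeR also gave 13 and 5, now of 41 members tested, beside 10.7% and 11.6%. Irf1, Ifih1, Trim25, Oas3, Oasl1, Ifit2, Parp9, Gbp2, Ifi35, Zbp1 and Adar were called under all 12 alternatives. Rsad2 was called under 11, since the filter of 10 counts in every sample removed it from the test.

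Replicates carry the numbers 1 to 3 in each group's labels. Deviations from the group mean of samples with the same number correlated with r of 0.19, -0.13 and -0.03 for numbers 1 to 3 across genes, so the numbers were not taken as pairs. With the replicate number as a block, 2180 genes were higher and 2256 lower, 14 members were higher and 5 lower, and Ifit3 (2.26, adjusted p = 0.0382 in edgeR) was the 1 member whose call changed.

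Values of Oas1a, Oas2 and Ifitm1 lie near the 3 counts taken as the smallest shown. The counts give no information on protein.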
